A study of Mus musculus with 18 samples.

Results

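Cardiac resident macrophages (CRMs) of aged hearts were compared between cells that carry the chemokine receptor CCR2 on their surface and cells that do not. The comparison used 6 libraries, 3 of CCR2+ CRMs and 3 of CCR2- CRMs from mice of 20 months, out of 18 libraries in the series, and all genes were described. The members were the libraries whose labels name aged mice and a CCR2 subset. Per the study's methods, cells came from left ventricles of female C57BL/6J mice, were sorted by flow cytometry on CD11b, CX3CR1 and CCR2, and at least 5000 cells went into each RNA sample. RNA was amplified with a SMART-Seq kit, which copies full-length cDNA from small inputs. The other libraries were CCR2+ and CCR2- CRMs of young mice (3 months, named controls in the labels) and of mice on a high-fat diet, 3 in each of the 4 groups, and the age of the high-fat diet mice was not given in the sources used here. No genotype or agent other than the diet was named in the labels. Whether 1 library stands for 1 mouse or for pooled hearts was not stated, so every p below measures the spread between these libraries.

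CRMs that lack CCR2 are known as long-lived cells that settled the heart early and renew there with little input from blood. They typically carry LYVE1, TIMD4 and FOLR2, take up dead cells and debris, and support the tissue. CRMs that carry CCR2 are replaced from blood monocytes, which follow the ligand CCL2 into the heart, and they are known for antigen presentation and inflammatory output.

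Total counts ranged from 39753911 to 55064650 in the aged libraries, and 3 counts in 1 library, the most that a count of 0 allows, stood for 0.0400 to 0.0663 CPM (counts scaled to a common library size with TMM factors, the scale of all levels below). This limit covers counting error only. The 3 CCR2- libraries were not equally distinct. CCR2- libraries 1 and 2 differed by 2-fold or more in 2223 genes, and library 3 lay between them in 99.8% of these. The same share was 0.282% to 66.6% in 16 other libraries of the series, each set against the other 2 of its group, which leaves out library 3 of the young CCR2- group, where it was 99.8% too. The sum of 0.449 times library 1 and 0.599 times library 2 came within 1.25-fold of library 3 in 88.4% of 9324 genes, against 8.45% to 32.2% in the same 16 libraries. Genes needed at least 200 counts in the sum and the library together. The main counts, and list values that moved by over 1.5 times, are therefore given with and without this library, and a spread over all 3 CCR2- libraries may be too small. Pearson's r of log2(CPM + 1), again scaled by total counts alone, was taken over 11586 genes. Without library 3 it was 0.653 to 0.689 for the 4 pairs of libraries within a subset and 0.633 to 0.699 for the 6 pairs between subsets. The ranges within and between subsets thus overlapped. The common dispersion was 1.39, which is a wide spread between replicates.

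The subset difference was first examined in the genes that define it. Ccr2 (ENSMUSG00000049103, chromosome 9, 124101950 to 124113557 on GRCm38) stood at 359, 302 and 132 CPM in CCR2+ libraries 1, 2 and 3 and at 108, 33.1 and 47.0 CPM in CCR2- libraries 1, 2 and 3. The groups did not overlap, but the lowest CCR2+ library was close to the highest CCR2- library, and every CCR2- library held Ccr2 transcripts well above the detection limit. On the log2 scale the CCR2+ level exceeded the CCR2- level by 2.08 (standard error 0.79, adjusted p = 0.338), or by 1.91 without CCR2- library 3 of both ages. In young mice the CCR2- libraries stood at 2.44, 2.94 and 3.92 CPM and the log2 fold change was 6.07 (standard error 0.95, adjusted p = 0.0242), and in high-fat diet mice they stood at 7.40, 28.9 and 6.79 CPM and the difference was 4.16 on that scale (standard error 0.84, adjusted p = 0.118). The aged difference was smaller than the young one by 3.99 on the log2 scale, and the test of that difference gave adjusted p = 0.106.

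Timd4, a receptor for phosphatidylserine on dying cells (chromosome 11, 46810800 to 46844332), stood at 1.08, 0.347 and 1.502 CPM in the CCR2+ libraries and at 102, 0.713 and 26.2 CPM in the CCR2- libraries. CCR2- library 2 lay within the CCR2+ range, so the groups overlapped. Lyve1, a hyaluronan receptor (chromosome 7, 110850607 to 110863239), stood at 33.2, 11.7 and 148 CPM in CCR2+ and at 467, 80.4 and 166 CPM in CCR2- libraries. Folr2, a folate receptor (chromosome 7, 101839988 to 101857194), stood at 51.6, 24.7 and 204 CPM in CCR2+ and at 592, 177 and 243 CPM in CCR2- libraries. For both genes CCR2+ library 3 reached into the CCR2- range. Their log2 fold changes were -5.46 (Timd4, standard error 1.80), -1.89 (Lyve1, standard error 0.87) and -1.86 (Folr2, standard error 0.89), with adjusted p of 0.334, 0.384 and 0.405. Lyve1 and Folr2 did not overlap between the subsets in young or in high-fat diet mice. All 4 markers thus lay in the labelled direction on average, and Ccr2 alone among them separated the aged libraries completely.

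**Figure D1:**
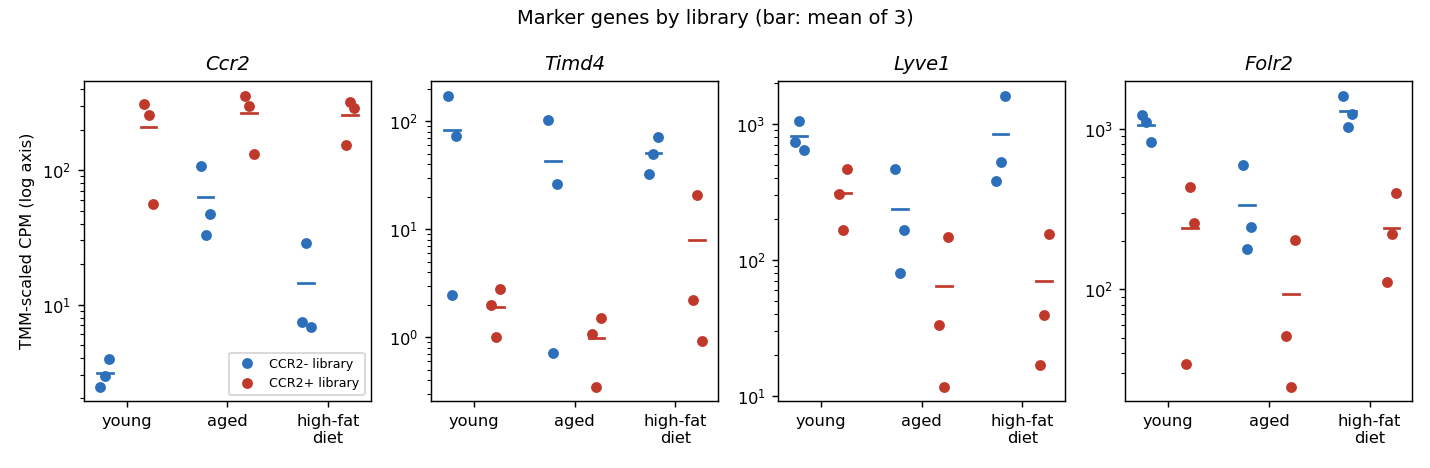
CPM (log axis) of Ccr2, Timd4, Lyve1 and Folr2 in the 3 libraries of each subset and condition, blue for CCR2- and red for CCR2+, with a bar at the mean. In aged mice the CCR2- libraries hold 33.1 to 108 CPM of Ccr2, against 2.44 to 3.92 CPM in young mice, and the subsets overlap in Timd4, Lyve1 and Folr2.

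Across the genome, edgeR's quasi-likelihood test called 0 of 14192 genes (0%) between the aged subsets, where a call needed an adjusted p under 0.05 and more than 2 log2 units of difference. The smallest adjusted p was 0.334. At an unadjusted p under 0.05, 1064 genes (7.5%) were higher and 768 (5.41%) lower in CCR2+ CRMs. The result depended on the count model, since DESeq2 called 705 genes higher (5.15%) and 477 lower (3.48%) among 13699 genes with an adjusted p. Its calls numbered 446 higher and 161 lower when CCR2- library 3 of both ages was left out. limma-voom called 59 higher and 36 lower. By the same edgeR rule 85 genes (0.599%) were called between the subsets of young mice and 2 of 15456 (0.0129%) between those of high-fat diet mice.

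Genes were therefore described by whether the 3 CCR2+ libraries lay wholly above or below the 3 CCR2- libraries. Of the 14192 genes, 1081 (7.62%) did not overlap and were higher in CCR2+ CRMs, and 1108 (7.81%) did not overlap and were lower. With RLE factors in place of TMM these numbers were 1304 and 806, so the near-even split depended on the scaling, and the median over all genes went from 0.12 log2 units with TMM to 0.33 with RLE factors. Without CCR2- library 3 of the aged mice they were 1525 (10.7%) and 1354 (9.54%), and leaving out another library raised at least 1 of them by over 1.5 times. They were 2368 and 2047 without CCR2+ library 1, 1909 and 1736 without CCR2+ library 2, 1684 and 1781 without CCR2+ library 3, 1756 and 2213 without CCR2- library 1, and 1427 and 1788 without CCR2- library 2. The share of lower genes grew with expression. It was 2.40% below 1 CPM, 6.25% from 1 to 10 CPM, 11.4% from 10 to 100 CPM, 12.5% from 100 to 1000 CPM and 12.9% above that, whereas the share of higher genes was 5.65%, 10.005%, 7.33%, 5.99% and 2.97% in the same bins. Counts of well expressed genes below are best read against these shares. List counts without CCR2- library 3 are best read against 10.7% higher and 9.54% lower over all genes. Of the 1081 higher genes, 600 (55.5%) had a mean under 1 CPM in CCR2- CRMs, and of the 1108 lower genes 322 (29.1%) had one in CCR2+ CRMs. Many of the largest differences thus lay between moderate expression in one subset and near absence in the other.

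The leading genes were the 10 in each direction with the smallest p among protein-coding genes with no overlap, 20 CPM or more on average in the higher subset and a log2 fold change beyond 2. Their log2 fold changes ran from 3.23 to 7.07 in size, and all 20 had adjusted p = 0.334 in edgeR. DESeq2 gave all 20 an adjusted p under 0.05, and 18 of them without CCR2- library 3 of both ages, where Cd209a and Retnla lost it. In 17 of the 20 the lower subset had a mean under 2 CPM, so the size of these fold changes rests on low levels in that subset.

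Among the leading genes higher in CCR2+ CRMs, Nr1h3 encodes LXR alpha, an oxysterol-sensing nuclear receptor that drives cholesterol efflux. It stood at 25.4, 5.54 and 38.7 CPM in CCR2+ libraries and at 0.240, 0.143 and 0.213 CPM in CCR2- libraries (log2 fold change 6.85, standard error 1.33). No library of one subset came near the other. In young and high-fat diet mice its subsets overlapped, with log2 fold changes of 0.08 and 0.01.

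Retnla encodes RELM alpha, a secreted product of alternatively activated macrophages. It stood at 960.0, 1040.4 and 1164 CPM in CCR2+ libraries and at 241, 25.1 and 70.9 CPM in CCR2- libraries (log2 fold change 3.23, standard error 0.74). The CCR2+ libraries lay close together while the CCR2- libraries spread widely. The gene was also higher without overlap in young (log2 fold change 1.87) and high-fat diet mice (2.58).

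Cd209a encodes a C-type lectin of monocyte-derived dendritic cells related to human DC-SIGN. It stood at 420.2, 78.6 and 583 CPM in CCR2+ libraries and at 52.8, 20.3 and 21.6 CPM in CCR2- libraries (log2 fold change 3.51, standard error 0.79). Its difference was of like size in young (3.58) and high-fat diet mice (3.97). Exosc1, a subunit of the RNA exosome, stood at 42, 31.7 and 38.6 CPM against 1.11, 0.856 and 1.44 CPM (log2 fold change 5.04). Aco1, the cytosolic aconitase that doubles as an iron-regulatory RNA-binding protein, stood at 28.0, 16.2 and 45.6 CPM against 0.633, 0.682 and 1.20 CPM (log2 fold change 5.15). Ezh1, a histone methyltransferase of the Polycomb repressive complex, stood at 28.8, 34.8 and 10.9 CPM against 0.349, 0.682 and 0.934 CPM (log2 fold change 5.24). The other 4 were Stn1, a telomere maintenance protein, Cog1, a Golgi tethering subunit, Rnf103, a ubiquitin ligase, and Grap, an adaptor related to GRB2, with log2 fold changes of 5.38, 5.55, 4.85 and 3.69.

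Among the leading genes lower in CCR2+ CRMs, Cd300e, an activating receptor of monocytes and macrophages, had the smallest p of all genes tested. It stood at 2.11, 1.04 and 1.06 CPM in CCR2+ libraries and at 263, 151 and 151 CPM in CCR2- libraries (log2 fold change -7.07, standard error 1.29). In young mice it was at most 2.77 CPM in any library, and in high-fat diet mice it was lower in CCR2+ CRMs without overlap (log2 fold change -3.23).

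Cd209f, another member of the Cd209 lectin cluster, stood at 1.35, 0.382 and 0.508 CPM in CCR2+ and at 159.6, 8.70 and 44.9 CPM in CCR2- libraries (log2 fold change -6.57, standard error 1.37). It was lower without overlap in young (-5.83) and high-fat diet mice (-5.93) as well. Gbp4, an interferon-induced GTPase, stood at 1.96, 0.920 and 0.641 CPM against 112, 45.2 and 50.3 CPM (log2 fold change -5.88). The others were BC017158, Dnaaf2, a dynein assembly factor, Zc3hc1, a zinc-finger protein of the nuclear envelope, Rps6ka4, the kinase MSK2, Pqlc2, a lysosomal amino acid exporter, Xpo4, a nuclear transport receptor, and Mlycd, malonyl-CoA decarboxylase. Their log2 fold changes ran from -5.00 to -6.23.

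**Figure D2:**
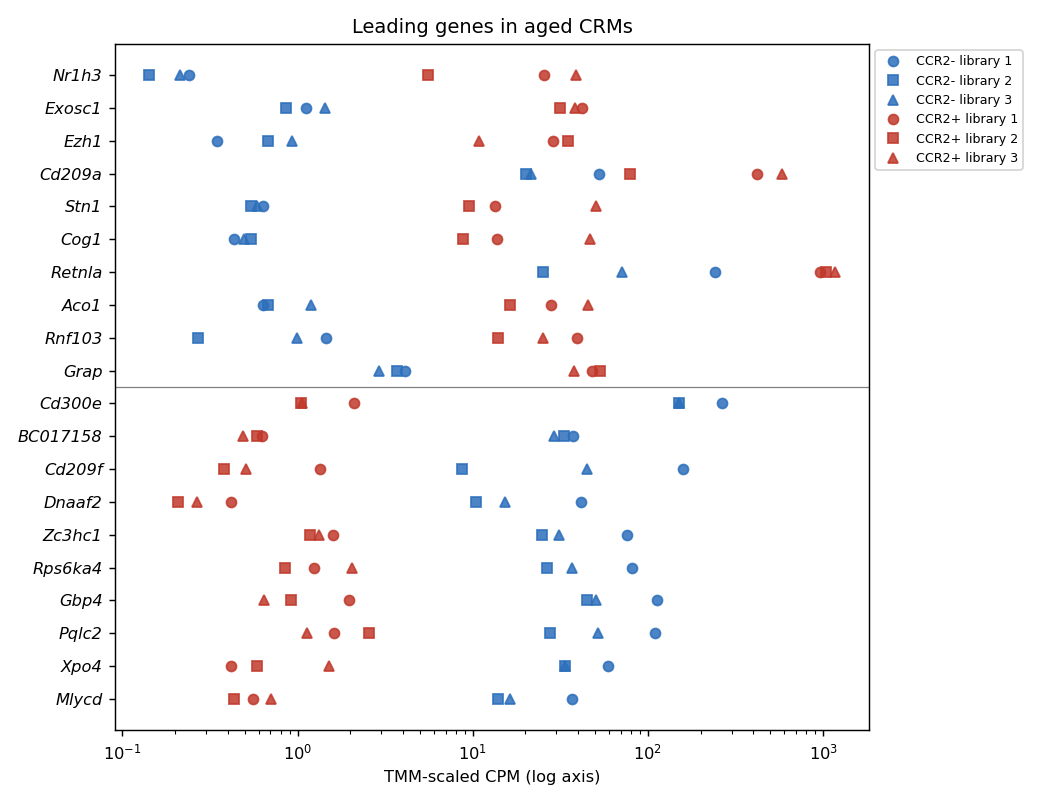
CPM (log axis) of the 20 leading genes in each aged library, with colour for the subset and marker shape for the library number. Genes above the line are higher in CCR2+ CRMs and genes below it lower, and in each row the red and blue markers do not overlap because the genes were chosen for that.

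The Cd209 genes lie side by side on chromosome 8, and 3 of them differed in opposite directions in aged mice. Cd209a (3743397 to 3748984) and Cd209d (3871824 to 3878555) were higher and Cd209f (4102787 to 4105835) was lower in CCR2+ CRMs. Cd209d stood at 16.0, 9.66 and 19.2 CPM in CCR2+ and at 0.0873, 0.190 and 0.534 CPM in CCR2- libraries (log2 fold change 5.77, standard error 2.13, adjusted p = 0.338). Unlike Cd209a and Cd209f, Cd209d overlapped in young and high-fat diet mice, with log2 fold changes of 0.13 and -0.25. Cd209b and Cd209g, also in the cluster, overlapped between the subsets. The sequences of the 150 bases upstream of these 3 genes are shown because neighbouring genes of 1 family pointed opposite ways, and those of Retnla and Cbr2 because both genes separated the subsets in all 3 conditions. They are from RefSeq on GRCm38.p6, 5′ to 3′ on the strand of the gene, and each ends just before the outermost start that RefSeq or GENCODE M21 annotates. Capitals mark GAGGAAGT (a PU.1 motif), TGANTCA (an AP-1 motif) or TGCTGAC (a Maf half-site) on either strand.
Cd209a, minus strand, chr8:3748985-3749134: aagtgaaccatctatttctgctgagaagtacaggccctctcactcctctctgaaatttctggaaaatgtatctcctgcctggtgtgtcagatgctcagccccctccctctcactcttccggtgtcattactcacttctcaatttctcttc
Cd209d, minus strand, chr8:3878556-3878705: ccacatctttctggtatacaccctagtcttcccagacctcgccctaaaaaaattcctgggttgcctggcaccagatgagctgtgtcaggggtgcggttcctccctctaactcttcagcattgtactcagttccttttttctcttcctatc
Cd209f, minus strand, chr8:4105836-4105985: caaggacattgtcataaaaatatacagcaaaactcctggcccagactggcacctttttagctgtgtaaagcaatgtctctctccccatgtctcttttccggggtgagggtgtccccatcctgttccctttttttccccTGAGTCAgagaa
Retnla, plus strand, chr16:48842401-48842550: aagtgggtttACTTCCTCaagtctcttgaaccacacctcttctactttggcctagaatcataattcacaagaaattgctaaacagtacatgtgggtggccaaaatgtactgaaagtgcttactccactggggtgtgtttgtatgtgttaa
Cbr2, minus strand, chr11:120732115-120732264: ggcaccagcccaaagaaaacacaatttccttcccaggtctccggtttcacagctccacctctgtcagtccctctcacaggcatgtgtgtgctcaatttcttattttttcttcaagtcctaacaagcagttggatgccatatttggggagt

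The Cd209f stretch held 1 AP-1 match and the Retnla stretch 1 PU.1 match, and the other 3 held none of the 3 motifs. The longer 300-base windows of Retnla and Cbr2 also held a Maf half-site, and those of Cd209a and Cd209d held none of the motifs. In the 300-base windows of RefSeq promoters, AP-1 letters occurred in 6.62% of the 9757 tested genes with a window, in 4.77% of 733 genes higher in CCR2+ CRMs without overlap and in 7.24% of 801 genes lower. PU.1 letters occurred in 4.17%, 4.64% and 5.62% and Maf half-site letters in 4.64%, 4.64% and 5.37% of the same sets. No test was made of these shares, and a match is a description of letters, not of binding.

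Markers of resident CRMs were examined as a list of 30 genes, all tested. Of these, 8 (26.7%) were lower in CCR2+ CRMs without overlap and 1 (3.33%) was higher, where 7.81% and 7.62% of all genes were. The median log2 fold change was -0.84, against 0.12 over all genes. It was -1.01 without CCR2- library 3. Cbr2, a carbonyl reductase of resident macrophages (chromosome 11, 120729489 to 120732114), stood at 342, 145 and 269 CPM in CCR2+ and at 1455, 378 and 588 CPM in CCR2- libraries (log2 fold change -1.68, standard error 0.50). Gas6, the ligand that bridges dying cells to TAM receptors, stood at 30.4, 6.71 and 5.57 CPM against 124, 58.8 and 61.7 CPM (log2 fold change -2.52, standard error 0.77). Both genes were lower in all 3 CCR2+ libraries, also in young and high-fat diet mice.

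Cd163, the haptoglobin-haemoglobin scavenger receptor, stood at 14.4, 1.87 and 4.82 CPM in CCR2+ and at 44.6, 26.0 and 19.2 CPM in CCR2- libraries (log2 fold change -2.09, standard error 0.88). Hpgd, which inactivates prostaglandins, stood at 5.89, 2.12 and 1.35 CPM against 74.5, 13.5 and 26.7 CPM (log2 fold change -3.61, standard error 1.12). Stab1, a scavenger receptor (-2.35), and Rnase4, a secreted ribonuclease (-1.44), had no overlap either. Mrc1, the mannose receptor often used as a resident marker, overlapped at a log2 fold change of 0.33. In young mice 18 of the 30 genes were lower without overlap (median log2 fold change -2.63), where 12.5% of all genes were, and in high-fat diet mice 20 were (median -2.68), where 6.11% of all genes were. edgeR's test of a subset effect that differs between aged mice and either other condition called none of the 30 genes, and DESeq2's calls for it are given further on over all genes. Fewer cells of a type and less RNA per cell cannot be told apart in such bulk libraries.

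Markers of monocyte-derived CRMs, again 30 genes, were higher without overlap in 7 (23.3%) and lower in 4 (13.3%), where 7.62% and 7.81% of all genes were. Their median log2 fold change was 0.59. S100a4, a calcium-binding protein of motile cells, stood at 1724, 1034 and 664 CPM in CCR2+ and at 513, 368 and 317 CPM in CCR2- libraries (log2 fold change 1.51, standard error 0.44). Its relative S100a6 stood at 1018, 580.0 and 714 CPM against 453, 308 and 281 CPM (log2 fold change 1.15, standard error 0.40). Vcan, a matrix proteoglycan made by classical monocytes, stood at 10.2, 27.0 and 15.7 CPM against 0.0873, 0 and 0.147 CPM (log2 fold change 7.77, standard error 2.15). Tnip3, an inhibitor of NF-kappa B signalling, was also higher in all 3 CCR2+ libraries, with a log2 fold change of 1.14.

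Ly6c2, the antigen of inflammatory monocytes, was dominated by 1 library. It stood at 6457, 497 and 202 CPM in CCR2+ and at 394, 84.5 and 138 CPM in CCR2- libraries, so that CCR2+ library 3 lay below CCR2- library 1. Plac8 stood at 5797, 1515 and 463 CPM against 1317, 939.9 and 834 CPM, so that CCR2+ library 3 was the lowest of all 6 and the groups overlapped. Treml4 and Cd300e, both found on nonclassical monocytes, were lower in CCR2+ CRMs, Treml4 at 105, 11.8 and 41.6 CPM against 232, 239 and 177 CPM. The 7 higher genes included Ccr2, S100a4, S100a6, Thbs1, Tnip3 and Vcan, and the 4 lower ones were Cd300e, Fgr, Nr4a1 and Treml4. In high-fat diet mice 19 of the 30 genes were higher without overlap and in young mice 7, where 7.57% and 6.5% of all genes were.

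Of 20 genes of MHC class II presentation, 2 were higher and 0 lower without overlap, where 7.62% and 7.81% of all genes were, and the median log2 fold change was 0.42, or 0.29 without CCR2- library 3. H2-Aa stood at 10507, 8577 and 15899 CPM in CCR2+ and at 8966, 8594 and 6678 CPM in CCR2- libraries (log2 fold change 0.53, standard error 0.31), and H2-Ab1, H2-Eb1 and the invariant chain Cd74 overlapped in the same way at 0.37, 0.41 and 0.26. In high-fat diet mice these 4 genes did not overlap and stood at log2 fold changes of 1.84, 2.01, 2.10 and 1.64. The 2 genes without overlap in aged mice were H2-Oa, a regulator of peptide loading, at 21.6, 20.8 and 29.3 CPM against 0.785, 0.729 and 0.680 CPM (log2 fold change 5.02, standard error 1.57), and Rfxap, part of the complex that activates MHC class II promoters, at 35.0, 50.3 and 29.4 CPM against 1.46, 11.7 and 6.14 CPM (2.57, standard error 1.27). MHC class I presentation had 0 of 20 genes higher and 1 lower without overlap, and its median was -0.50. Without CCR2- library 3, 3 (15.0%) were lower, where 9.54% of all genes were.

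Of 47 interferon response genes, 0 were higher and 3 (6.38%) lower without overlap, against 7.62% and 7.81% of all genes, and their median log2 fold change was -0.31, or -0.51 without CCR2- library 3. Irf7 spread from 125 to 1637 CPM among CCR2+ and from 96.9 to 2008 CPM among CCR2- libraries, so that libraries within a subset differed more than the subsets did. Of 29 cytokine and inflammasome genes, 1 (3.45%) was higher and 3 (10.3%) lower, near the shares over all genes (median 0.07, or -0.12 without CCR2- library 3). Il1b stood at 2253, 1591 and 3158 CPM against 1936, 2529 and 1751 CPM (log2 fold change 0.17, standard error 0.40), and Tnf at 208, 178 and 289 CPM against 766, 280.4 and 357 CPM (-1.06, standard error 0.76). Nlrp3, the inflammasome sensor, was lower without overlap, at 15.5, 29.7 and 43.4 CPM against 69.4, 53.3 and 45.4 CPM, by a narrow margin.

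Chemoattractant receptors were lower without overlap in 7 of 21 tested genes (33.3%) and higher in 2 (9.52%), where 7.81% and 7.62% of all genes were. Without CCR2- library 3, 7 (33.3%) were lower and 3 (14.3%) higher, where 9.54% and 10.7% of all genes were. Their median log2 fold change with all libraries was -0.55. Fpr1, the formyl peptide receptor that senses bacterial and mitochondrial peptides, stood at 4.14, 2.48 and 2.87 CPM in CCR2+ and at 43.6, 59.7 and 42.1 CPM in CCR2- libraries (log2 fold change -3.94, standard error 1.05). Its neighbour Fpr2 stood at 0.702, 28.8 and 1.75 CPM against 71.6, 67.0 and 54.5 CPM (-2.63, standard error 1.45). Cmklr1, the chemerin receptor, stood at 1.22, 3.44 and 4.40 CPM against 9.08, 75.1 and 37.7 CPM (-3.75, standard error 1.28). Cx3cr1, one of the sort markers, stood at 18.6, 82.6 and 64.6 CPM against 166, 204 and 151 CPM (-1.65, standard error 1.24). Itgam, which encodes the sort marker CD11b, stood at 40.9, 127 and 31.3 CPM against 1.66, 93.2 and 53.6 CPM and overlapped. Of the 2 higher genes, 1 was Ccr2 itself.

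Of 25 chemokine genes, 0 were higher and 3 lower without overlap, or 1 and 3 without CCR2- library 3. Ccl8 stood at 58.5, 212 and 323 CPM in CCR2+ and at 509, 439.6 and 357 CPM in CCR2- libraries, Cxcl13 at 42.7, 227 and 214 CPM against 294, 675 and 418 CPM, and Ccl11 at 0.144, 0.139 and 0 CPM against 14.6, 7.88 and 7.28 CPM. Their log2 fold changes were -1.14, -1.52 and -6.67 (standard errors 1.04, 1.23 and 2.10).

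Receptors for uptake of dead cells and debris were lower without overlap in 9 of 30 tested genes (30.0%) and higher in 1 (3.33%), where 7.81% and 7.62% of all genes were. Their median log2 fold change was -0.33, or -0.52 without CCR2- library 3. Mertk, the TAM receptor through which macrophages engulf dying cells, stood at 0.936, 0.694 and 0.751 CPM in CCR2+ and at 28.6, 65.4 and 37.4 CPM in CCR2- libraries (log2 fold change -5.78, standard error 1.83, adjusted p = 0.334). It was near absent from all 3 CCR2+ libraries. In young mice it overlapped, at 1.45, 171 and 1.61 CPM against 10.5, 116 and 42.5 CPM. Axl, another TAM receptor, stood at 380.4, 287 and 373 CPM against 213, 305 and 208 CPM in the aged libraries and overlapped (log2 fold change 0.52, standard error 0.47). Havcr2 (TIM-3, log2 fold change -1.45) and Fcgr4, a receptor for immunoglobulin G (-1.05), were lower in all 3 CCR2+ libraries.

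Iron and heme handling genes were lower without overlap in 7 of 22 (31.8%) and higher in 1 (4.55%), where 7.81% and 7.62% of all genes were. Their median log2 fold change was -0.73, which the young (-0.67) and high-fat diet mice (-0.57) nearly shared. Slc11a1, the NRAMP1 metal transporter of phagosomes, stood at 178, 123 and 72.5 CPM in CCR2+ and at 541, 378 and 344 CPM in CCR2- libraries (log2 fold change -1.76, standard error 0.54). Trf, transferrin, stood at 265, 221 and 407 CPM against 1126, 625 and 607 CPM (-1.40, standard error 0.55). Blvrb, a biliverdin reductase, stood at 76.8, 58.5 and 104 CPM against 212, 205 and 162 CPM (-1.27, standard error 0.71). The higher gene was Aco1, described above. Hmox1, heme oxygenase 1, stood at 414, 444.6 and 309.6 CPM against 358, 299 and 283 CPM and overlapped.

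Lipid handling and foam cell genes held the largest share of lower genes among the 17 process lists, 11 of 28 (39.3%), with 1 (3.57%) higher. Over all genes 7.81% were lower and 7.62% higher. The median log2 fold change of the list was -0.53. Apoe, the lipoprotein that carries cholesterol out of macrophages, stood at 5216, 5495 and 8622 CPM in CCR2+ and at 12333, 11081 and 8780.1 CPM in CCR2- libraries (log2 fold change -0.74, standard error 0.29). The closest pair of libraries, CCR2+ library 3 and CCR2- library 3, nearly met. Fabp4, a fatty acid carrier, stood at 15.8, 15.1 and 3.31 CPM against 67.0, 65.6 and 49.5 CPM (-2.41, standard error 0.87), and Mylip, the ligase that degrades the LDL receptor and a target of LXR, at 0.288, 2.31 and 1.68 CPM against 23.7, 16.8 and 14.7 CPM (-3.69, standard error 1.58). The lysosomal proteases Ctsb and Ctsd had log2 fold changes of -0.84 (standard error 0.25) and -1.20 (standard error 0.42), with 2870.5, 2036 and 3585 CPM of Ctsb in CCR2+ against 5292, 5676 and 4198 CPM in CCR2- libraries. Nr1h3 was the higher gene, while Abca1, an LXR target, overlapped at 0.76. Endothelial cells also express Fabp4, and Pecam1, an endothelial and leukocyte adhesion protein, stood at 0.720, 1.80 and 3.49 CPM in CCR2+ and at 51.5, 65.8 and 45.1 CPM in CCR2- libraries. The 10 endothelial markers tested included Fabp4 and Pecam1. They summed to 331, 74.7 and 29.0 CPM in CCR2+ and to 206, 195 and 149 CPM in CCR2- libraries. The sums overlapped only in CCR2+ library 1, where Ly6c1 alone stood at 311 CPM. Ly6c1 stood at 21.6 and 5.08 CPM in the other CCR2+ libraries and at 86.7, 1.60 and 22.8 CPM in the CCR2- libraries. The part of endothelial cells in the Fabp4 result was not tested.

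**Figure D3:**
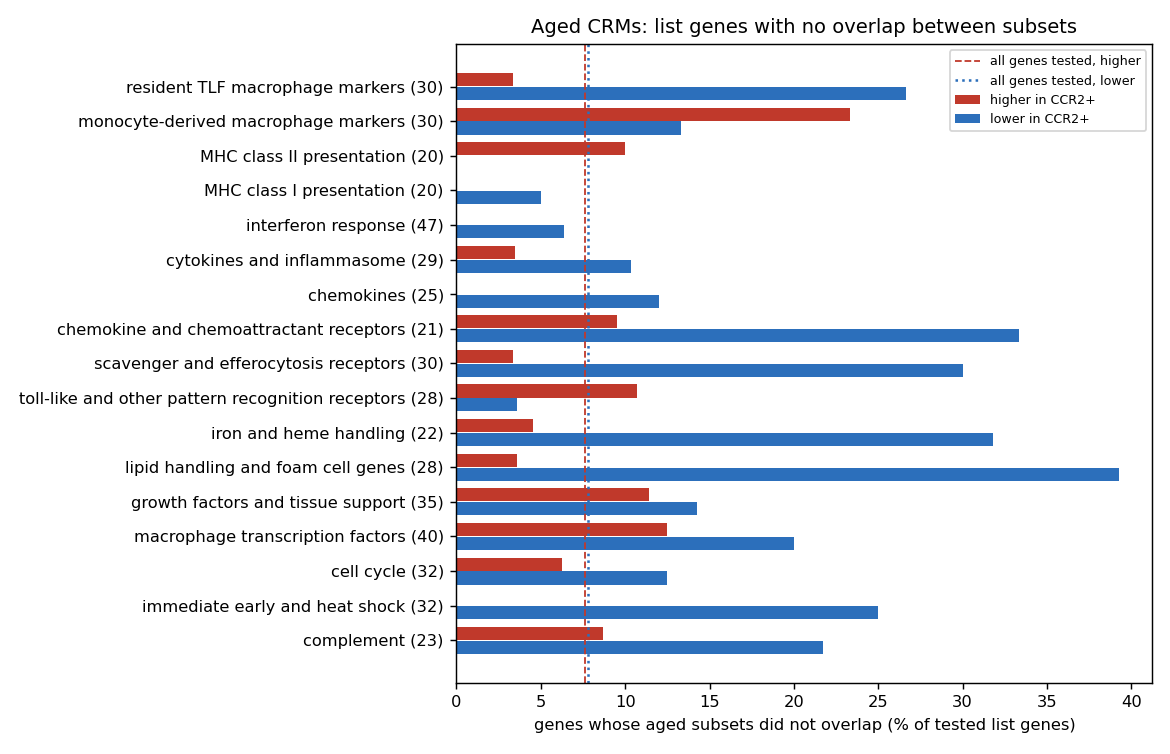
Share of tested genes in each list whose aged subsets did not overlap, red for higher and blue for lower in CCR2+ CRMs, with the number tested in brackets and lines at the shares over all genes (7.62% and 7.81%). Lower genes reach 39.3% for lipid handling and 33.3% for chemoattractant receptors, and higher genes 23.3% for monocyte-derived markers.

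Complement genes were lower without overlap in 5 of 23 (21.7%) and higher in 2 (8.70%), where 7.81% and 7.62% of all genes were. C1qa stood at 1858, 1374 and 1992 CPM in CCR2+ and at 4718, 2332 and 2462 CPM in CCR2- libraries (log2 fold change -0.86, standard error 0.35), and C1qc had no overlap either (-0.96, standard error 0.40).

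Pattern recognition receptors gave 3 higher (10.7%) and 1 lower (3.57%) of 28 genes, where 7.62% and 7.81% of all genes were. Their median was 0.01, or -0.12 without CCR2- library 3. Tlr9, the endosomal sensor of DNA, stood at 3.602, 3.57 and 0.177 CPM in CCR2+ and at 0, 0.0634 and 0.160 CPM in CCR2- libraries. Its groups were split by a narrow margin. Ticam1, the adaptor TRIF, stood at 0.738, 20.9 and 27.2 CPM against 0.393, 0.491 and 0.293 CPM. The third higher gene was Irak1, a kinase of Toll-like receptor signalling. Tlr4, the endotoxin receptor, overlapped and stood at 0.126, 21.3 and 14.4 CPM against 0.175, 0 and 0.534 CPM. In Tlr9, CCR2+ library 3 stood well below the other libraries of its subset, and in Ticam1 and Tlr4 CCR2+ library 1 did.

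Of 40 macrophage transcription factors, 5 were higher and 8 lower without overlap, and their median of -0.11 turned to 0.13 with RLE factors. Nr1h3 and Tfec, a relative of MITF, were the higher genes with the smallest p. Tfec stood at 21.3, 22.2 and 1.92 CPM in CCR2+ and at 0.436, 0.190 and 1.17 CPM in CCR2- libraries (log2 fold change 4.65, standard error 1.39) and was lower without overlap in young (-6.20) and high-fat diet mice (-5.03). Rela, Bcl6 and Cebpa were the other 3, with log2 fold changes of 2.15, 2.61 and 1.19. Nr4a1, the orphan receptor needed by nonclassical monocytes, stood at 103, 165 and 94.2 CPM against 727, 279 and 323 CPM (-1.88, standard error 0.72), and Klf6 at 880.3, 817 and 905 CPM against 2289, 1259 and 1242 CPM (-0.88, standard error 0.47).

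Immediate early and heat shock genes, which respond quickly to handling of cells as well as to signals in tissue, were lower without overlap in 8 of 32 (25.0%) and higher in 0. Over all genes 7.81% were lower and 7.62% higher. The median log2 fold change of the list was -0.47, close to those of young (-0.48) and high-fat diet mice (-0.37). Fos stood at 1230.3, 709 and 1051 CPM in CCR2+ and at 2098, 1322 and 1235 CPM in CCR2- libraries, where the closest libraries nearly met. Dusp1, a phosphatase of stress kinases, stood at 1943, 1245 and 2004 CPM against 3264, 2959.8 and 2382 CPM, and Atf3, a stress-response repressor, at 470.2, 330.4 and 505 CPM against 1397, 521 and 639 CPM. The part of cell handling in these values was not tested.

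Growth factor and tissue support genes gave 4 higher (11.4%) and 5 lower (14.3%) of 35, where 7.62% and 7.81% of all genes were. Thbs1, a matrix protein that activates TGF beta, stood at 141, 319 and 167 CPM in CCR2+ and at 10.7, 69.7 and 44.5 CPM in CCR2- libraries (log2 fold change 2.33, standard error 0.93), and it was higher without overlap in all 3 conditions. Igf1, a growth factor of resident CRMs, stood at 52.1, 94.1 and 72.1 CPM against 179, 121 and 97.1 CPM (-0.87, standard error 0.96). Mmp13, a collagenase, stood at 16.2, 16.5 and 43.8 CPM against 203, 46.4 and 80.6 CPM (-2.11, standard error 1.39).

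Cell cycle genes gave 2 higher (6.25%) and 4 lower (12.5%) of 32, where 7.62% and 7.81% of all genes were higher and lower. Without CCR2- library 3, 6 (18.8%) were lower, where 9.54% of all genes were. Of the 32 log2 fold changes 23 were negative. Rrm2, a subunit of ribonucleotide reductase, stood at 19.6, 14.8 and 25.4 CPM in CCR2+ and at 2.75, 1.62 and 2.25 CPM in CCR2- libraries (log2 fold change 3.17, standard error 1.13). Aurka, a mitotic kinase, stood at 3.71, 0.781 and 0.619 CPM against 78.5, 39.9 and 41.6 CPM (-4.97, standard error 1.66). Mki67, the usual marker of cycling cells, overlapped at 30.1, 14.7 and 5.15 CPM against 1.16, 11.8 and 9.66 CPM.

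The subset difference of aged mice was then set beside those of young and high-fat diet mice. Of the 1081 genes higher without overlap in aged mice, 133 (12.3%) were also higher without overlap in young mice, where 6.5% of all genes were, and 88 (8.14%) in high-fat diet mice, where 7.57% were. Of the 1108 lower genes, 159 (14.4%) were also lower in young mice, where 12.5% of all genes were, and 93 (8.39%) in high-fat diet mice, where 6.11% were. Most genes that separated the aged subsets thus overlapped, or pointed the other way, in the other conditions. Among the 1081 higher genes, 130 (12.03%) were lower without overlap in young mice and 64 (5.92%) in high-fat diet mice. Over all genes 12.5% and 6.11% were. Among the 1108 lower genes, 83 (7.49%) were higher without overlap in young mice and 59 (5.32%) in high-fat diet mice. Over all genes 6.5% and 7.57% were. The opposite direction was thus about as common as over all genes. Of the 20 leading genes, 4 separated the young subsets in the same direction and 5 in the opposite one, and 6 and 2 did so in high-fat diet mice. Exosc1, Rnf103 and Grap, higher in aged CCR2+ CRMs, were lower in young CCR2+ CRMs at log2 fold changes of -4.40, -5.76 and -4.15, and Gbp4 and BC017158 were lower in aged and higher in young CCR2+ CRMs (3.17 and 1.01 in young mice). BC017158 was near the detection limit in young mice, at 0.351, 0.393 and 0.571 CPM in CCR2+ and 0.305, 0.120 and 0.222 CPM in CCR2- libraries. The test of a different subset effect called 0 of 14192 genes (0%) between aged and young mice and 0 of 15456 (0%) between aged and high-fat diet mice, with smallest adjusted p of 0.0576 and 0.0919, while 3097 and 2294 genes had an unadjusted p under 0.05. DESeq2 called 1627 and 1005 genes by the same contrasts.

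**Figure D4:**
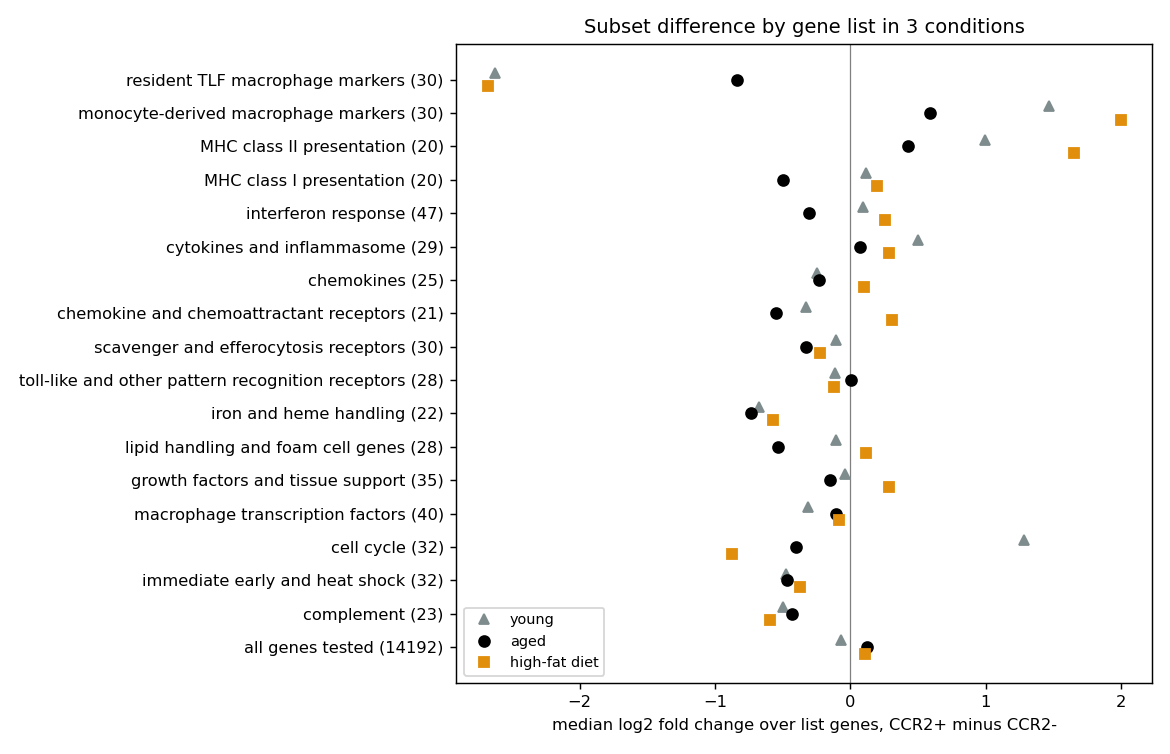
Median log2 fold change between CCR2+ and CCR2- CRMs over the tested genes of each list, with circles for aged, triangles for young and squares for high-fat diet mice. Resident markers stand at -0.84 in aged mice against -2.63 and -2.68 in the other conditions, and the medians of single lists were not tested.

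In all 3 conditions, 33 genes (0.233% of 14192) were higher and 18 (0.127%) lower in CCR2+ CRMs without overlap. Of these, 21 and 16 reached a mean of 20 CPM in the higher subset of aged mice. The higher genes included Ccr2, Cd209a, Retnla, S100a4, S100a6, Thbs1 and Tnip3, given above. Tmsb10, an actin-binding peptide, stood at 4084, 2081 and 1401 CPM in aged CCR2+ and at 1091, 907 and 767 CPM in aged CCR2- libraries (log2 fold change 1.45, standard error 0.42). Wnt11, a secreted Wnt ligand, stood at 49.5, 11.3 and 114 CPM against 2.18, 3.82 and 1.87 CPM (4.47, standard error 1.19). In young mice its levels were low, at 0.491, 0.838 and 0.672 CPM against 0.240, 0.167 and 0.409 CPM (1.28, standard error 1.06).

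The lower genes included Cd209f, Cbr2, Gas6, Hpgd and Blvrb. Ptgs1, the constitutive cyclooxygenase COX-1, stood at 0.612, 3.23 and 2.01 CPM in aged CCR2+ and at 57.7, 82.4 and 58.7 CPM in aged CCR2- libraries (log2 fold change -5.08, standard error 1.39). In young mice its subsets were split by a narrow margin, at 0.772, 1.18 and 1.24 CPM against 61.8, 1.34 and 29.2 CPM. Ms4a7, a membrane protein of tissue macrophages, stood at 440.2, 400.1 and 266 CPM against 1076, 724 and 665 CPM (-1.16, standard error 0.57). Vcam1, an adhesion molecule, stood at 75.1, 49.6 and 213 CPM against 265, 273 and 215 CPM (-1.16, standard error 0.81), with CCR2+ library 3 just under the CCR2- range.

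Markers of macrophages and of other cells were summed to check what the sorted populations held. The 14 macrophage core genes summed to 30481 to 54616 CPM in CCR2+ and 35553 to 60387 CPM in CCR2- libraries. Of the 14, 6 (42.9%) were lower without overlap and 0 higher, where 7.81% and 7.62% of all genes were. The lower ones included Csf1r (279.8, 523 and 622 CPM against 1114, 1048 and 822 CPM) and Cd68 (986, 426 and 980.3 CPM against 2090.0, 1094 and 1113 CPM). Lyz2 ran between 15191 and 36919 CPM over the 6 libraries and held much of these sums. The core sum was the largest among the cell type lists in every library, but not each core gene was well expressed throughout. Mertk stood at 0.694 to 0.936 CPM in the CCR2+ libraries, Cx3cr1 at 18.6 CPM in CCR2+ library 1, and Itgam, given above, was low in CCR2- library 1. The 12 monocyte genes summed to 1574 to 15438 CPM in CCR2+ and 2008 to 3491 CPM in CCR2- libraries, the top value being library 1.

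Dendritic cell genes summed to 386 to 868 CPM in CCR2+ and 220.4 to 280.3 CPM in CCR2- libraries without overlap. Without Cd209a, a leading gene chosen for its lack of overlap, the other 13 summed to 184, 308 and 285 CPM in CCR2+ and 228, 259 and 199 CPM in CCR2- libraries and overlapped, a sum added after the values were seen. Flt3, the cytokine receptor of dendritic cells and their precursors, stood at 15.3, 8.07 and 116 CPM against 0.480, 0.238 and 0.800 CPM (log2 fold change 6.51, standard error 1.81), and Xcr1, of cross-presenting dendritic cells, at 23.4, 2.12 and 0.221 CPM against 0.175, 0.127 and 0.107 CPM. Zbtb46, a defining dendritic cell factor, was between 0.0720 and 0.177 CPM in the CCR2+ libraries and at 0, 19.4 and 7.11 CPM in the CCR2- libraries. Of the 14 dendritic cell genes tested, 4 (28.6%) were higher and 2 (14.3%) lower without overlap, where 7.62% and 7.81% of all genes were. The part of dendritic cells in the Cd209a and MHC class II values was not tested.

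T and NK cell genes summed to 67.6 to 108 CPM in CCR2+ and 221 to 357 CPM in CCR2- libraries. Gzmb, a protease of cytotoxic granules, stood at 0.684, 0.468 and 0.663 CPM in CCR2+ and at 66.9, 69.0 and 53.3 CPM in CCR2- libraries (log2 fold change -6.70, standard error 1.87), and Gzma at 2.14, 0.937 and 0.331 CPM against 32.6, 68.4 and 40.4 CPM (-5.37, standard error 1.47). Nkg7 and Klrb1c were high in CCR2- library 2 (91.9 and 37.4 CPM) and library 3 (48.1 and 17.5 CPM) and not in library 1 (1.81 and 0 CPM). The T cell gene Cd3e was between 0.711 and 1.08 CPM in all 6 libraries and the NK cell gene Ncr1 at 0.191 CPM or less in each. Of the 15 genes tested 2 (13.3%) were lower and 1 (6.67%) higher without overlap, where 7.81% and 7.62% of all genes were. Their log2 fold changes were positive in 9 and negative in 6, with a median of 0.02. The lower sums thus did not extend to most genes of the list. Without Gzma and Gzmb the other 13 summed to 72.8, 107 and 66.6 CPM against 121, 219.7 and 162 CPM. Their part in the other results was not tested.

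Of the remaining lists, mast cell and basophil genes summed to 7.58 to 44.5 CPM in CCR2+ and 87.1 to 139 CPM in CCR2- libraries, with Hdc at 73.0 to 139 CPM in the latter. Without Hdc the other 4 summed to 0.288, 15.2 and 4.82 CPM against 0.654, 16.3 and 9.94 CPM and overlapped. The sums of neutrophil, B cell, cardiomyocyte, fibroblast, endothelial, mural, erythroid and platelet genes overlapped, the endothelial ones only through Ly6c1 in CCR2+ library 1. Cardiomyocyte genes summed to 40.4 to 203 CPM in CCR2+ and 41.3 to 59.9 CPM in CCR2- libraries, and fibroblast genes reached 624 CPM in 1 library of each subset.

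**Figure D5:**
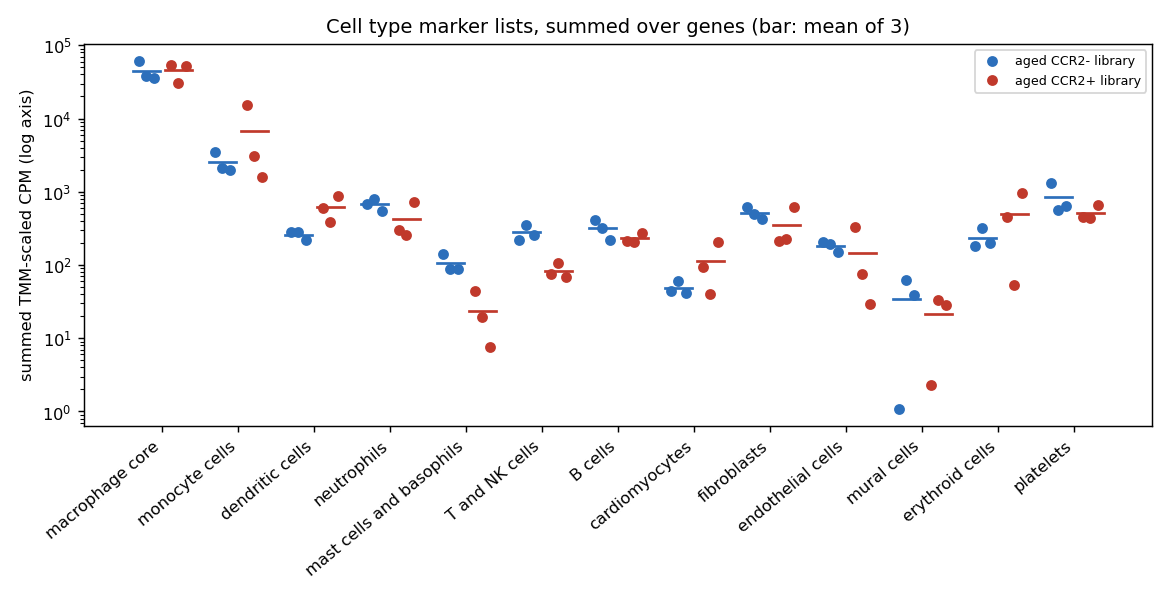
Summed CPM (log axis) of the marker genes of each cell type in every aged library, blue for CCR2- and red for CCR2+, with a bar at the mean of 3. Macrophage genes reach 30481 to 60387 CPM in all 6 libraries. The sums of T and NK cell genes lie lower in the 3 CCR2+ libraries, though 9 of their 15 log2 fold changes are positive. The sums of dendritic cell genes lie higher in the CCR2+ libraries only with Cd209a included.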

How the data were processed

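RNA of sorted CRMs was measured in 18 libraries, 3 per subset and condition, grouped by their labels, and ages were taken from the study's methods. The authors used Cutadapt for trimming, HISAT2 for mapping and StringTie for assembly. The deposited values are whole-number read counts per gene with no normalization, 39753911 to 55064650 counts in the 6 aged libraries. How reads shared by several genes or strands were counted is not given in the sources used here, so closely related genes, Cd209 and MHC genes among them, are uncertain. Symbols and coordinates came from GENCODE M21 (GRCm38). The 12 aged and young libraries were fitted by group with edgeR 4.0.16 in R 4.3.3 (filterByExpr, TMM factors, quasi-likelihood test, Benjamini-Hochberg adjustment over 14192 genes), and all 18 for the high-fat diet. Each standard error is the size of the log2 fold change divided by the square root of that test's F. It thus reflects the spread over all libraries of the fit. DESeq2 1.42.0 and limma-voom 3.58.1 were alternatives. Calls needed an adjusted p under 0.05 and over 2 log2 units. Scripts were tested on simulated data. The libraries, the 17 process and 13 cell type lists (611 of 612 genes matched) and the named genes were chosen with earlier results of these data known. Named were the 4 markers, called genes, the 20 leading genes, and per process list preset key genes and up to 2 genes in each direction without overlap and with the smallest p. Other genes, among them all cell type genes and those shared by the 3 conditions, were named after their values were seen. Whether replicate numbers pair the libraries was not stated, so the main fit did not pair them. Same-numbered aged libraries of the 2 subsets deviated together at r of 0.0447 to 0.0743, and differently numbered ones at r of -0.156 to 0.119. With so few libraries and a wide spread between them, these values cannot decide whether same-numbered libraries share hearts. Some genes of these lists are not reported here.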

Additional observations from a re-analysis of the deposited data

How the results depend on the processing

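The 0 genes called between the aged subsets stayed 0 under every edgeR setting tried, namely other scaling (RLE factors or library size), a filter of 10 counts in each aged library or none, only the 6 aged or all 18 libraries, leaving out CCR2- library 3 of both ages, leaving out each aged library in turn (0 to 0), an adjusted p under 0.05 without a fold threshold or under 0.1 with it, and, chosen after seeing the data, the 5 other aged libraries. The smallest adjusted p was 0.0594 with only the 6 aged libraries. limma-voom called 95 genes and DESeq2 1182, or 607 without CCR2- library 3 of the aged and young mice, a setting added after the data were seen. For the difference from young mice DESeq2 called 1627 genes and for that from high-fat diet mice 1005. A replicate block, which adds the replicate number to the edgeR model, gave 0 calls in all 3 comparisons (smallest adjusted p 0.567, 0.212 and 0.238). Whether same-numbered libraries share more than a number was not stated. Leaving out each aged library gave 1427 to 2368 genes higher and 1736 to 2213 lower without overlap, or 1354 lower without CCR2- library 3, since fewer libraries overlap less. Of 102 named genes, 90 kept their direction in every setting that gave a value. The other 12 changed direction in at least 1 setting, and leaving out each library moved 11 of them over these ranges: Plac8 -0.031 to 1.87, Cdkn1a -0.69 to 0.067, Cd74 -0.034 to 0.47, Isg15 -1.55 to 0.37, Irf7 -2.62 to 0.84, Il1b -0.056 to 0.39, Klf4 -0.31 to 0.55, Maf -0.22 to 0.69, Lgals3 -0.35 to 0.26, C3 -1.30 to 1.11 and Tlr2 -0.30 to 0.20. limma-voom turned Ciita to -0.15 and C3 to -0.51, the replicate block turned Lgals3 to -0.010, no filter turned Tlr2 to -0.020, and leaving out CCR2- library 3 turned Lgals3 to -0.095 and Tlr2 to -0.10. Of 17 list medians, 11 moved by more than their spread in at least 1 setting.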

Other observations

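Cytosolic ribosomal protein genes, a set chosen after its values were seen, were higher in aged CCR2+ CRMs as a group. Of 81 protein-coding genes tested, 34 (42%) were higher without overlap and 0 lower, against 7.62% and 7.81% of all genes, and 77 of 81 log2 fold changes were positive with a median of 0.53. Their summed level was 22250.0 CPM in CCR2+ library 1, 22110.0 in library 2 and 24174 in library 3, and 19381, 15067 and 13463 CPM in the CCR2- libraries, so the subsets did not overlap. In young mice 38 of the 81 genes were higher and 1 lower without overlap, and in high-fat diet mice 21 and 0. Rpsa stood at 268, 479 and 447 CPM in aged CCR2+ and at 148, 160.3 and 144 CPM in aged CCR2- libraries (log2 fold change 1.401, standard error 0.51). Of the 81 genes, 3 had an unadjusted p under 0.05 and the smallest adjusted p was 0.338. Many of these genes have processed pseudogenes that can share their reads.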
